A study of Rattus norvegicus and Mus musculus and Macaca mulatta with 84 samples.

Results

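Liver RNA of the UC Davis type 2 diabetes mellitus (UCD-T2DM) rat was compared between animals that had been diabetic for 2 weeks (n = 4) and animals of the same strain that were still prediabetic (n = 5). These 9 libraries, picked by the stage named in their titles, are part of 84 samples of rodent and monkey liver in all. The same table also holds UCD-T2DM livers after 3 months (n = 5) and 6 months (n = 6) of diabetes, and the study as a whole asked how the microRNA family miR-29 bears on liver lipid synthesis. Every library is polyadenylated RNA of liver from a separate animal with its own number. The labels name the strain, the tissue and the duration of diabetes, and they name no sex, age, diet, treatment or batch for either group. Values are the authors' normalised counts, which are scaled for sequencing depth and not for gene length, so levels are compared between livers and not between genes.

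The UCD-T2DM rat was bred by crossing obese Sprague-Dawley rats with lean rats of the Zucker diabetic line. Its leptin receptor is intact, obesity and insulin resistance come first, and diabetes follows in adult animals once insulin secretion no longer meets demand. In the fed state insulin drives the liver to phosphorylate glucose, make fatty acids through the sterol regulatory element binding protein SREBP-1c, and store or export them as triglyceride. When insulin action is low, the liver instead burns fatty acids in mitochondria and peroxisomes under the nuclear receptor PPARα, makes ketone bodies, and makes glucose from amino acids and lactate.

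No gene separated 2-week from prediabetic livers after correction over the transcriptome. Of 13640 genes with a mean normalised count of at least 10, limma called 0 at an adjusted p under 0.05 (0%), and the smallest adjusted p was 0.166. An unadjusted p under 0.05 was given to 476 genes with higher values in 2-week livers (3.49%) and 601 with lower values (4.41%), 1077 in all (7.9%). Without prediabetic replicate 2 those counts were 533 (3.91%) and 567 (4.16%). Differences lay above 0 for 54% of genes and below 0 for 46%. Their log2 median was -0.07 in the shortest 1 in 5 genes and 0.11 in the longest 1 in 5. Without prediabetic replicate 2 those medians were -0.001 and 0.008. The difference was over 1 on the log2 scale, in either direction, for 193 genes (1.41%), against 7.02% of the same genes at 3 months and 8.12% at 6 months when those livers were set against the same prediabetic livers. The median standard error of a difference was 0.18 on the log2 scale, and the 5th and 95th percentiles of all differences were -0.40 and 0.48. The count of genes called was 3 without 2-week replicate 2 (Dpt and the unnamed AABR07015081.2 and AABR07015057.1, all lower) and 3 without 2-week replicate 3 (Ctps2 and Lrat higher, the unnamed AABR07070043.1 lower), and genes with an unadjusted p under 0.05 numbered 679 without 2-week replicate 4. Since no gene passed with all libraries, the values below are differences of these livers with errors from the fit, and "higher" and "lower" describe group means. Each SE and limma p rests on a spread pooled over all 4 stages, 3 and 6 months included. It can therefore be wider or narrower than the spread of the compared livers alone.

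**Figure D1:**
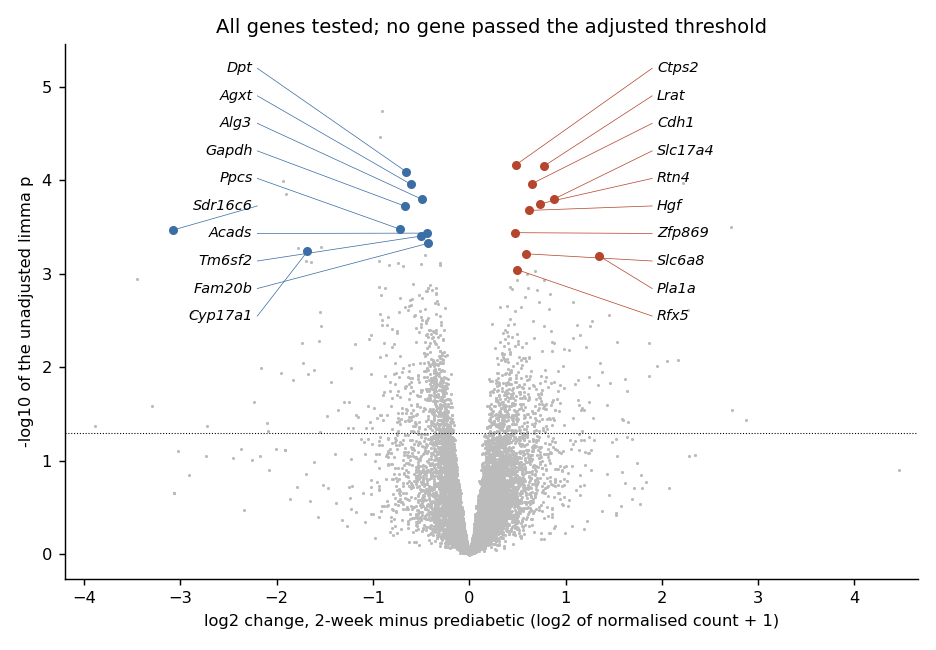
Each point is 1 of the 13640 genes tested; the horizontal axis is the log2 difference, 2-week minus prediabetic, the vertical axis is -log10 of the unadjusted limma p, and the dotted line marks 0.05. The 10 higher (red) and 10 lower (blue) named genes of smallest p with a mean over both groups of 50 or more are labelled, and none of the genes plotted reached an adjusted p under 0.05.

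The libraries were alike in summed normalised counts but differed in estimated reads and in other respects. Normalised counts, already scaled for depth, summed to 38.2 to 41.6 M in 2-week livers and 39.7 to 44.7 M in prediabetic livers. Reads per library, estimated from the step between low values, were 25.8 to 45.5 M in 2-week livers, with replicates 4 and 2 the lowest, and 40.2 to 46.7 M in prediabetic livers. These estimates are rough. Of values under 20 reads, 68.8% to 86.8% in 2-week livers and 75.7% to 87.2% in prediabetic livers lay within 0.05 of a whole number. Prediabetic replicate 2 stood apart. Its score on the second principal component was -58.1, with the other 8 between -11.9 and 11.9. In it 1495 genes lay more than 1 log2 unit from the mean of its fellows (375 to 550 in the others), and the shortest 1 in 5 genes had a median 0.36 above its fellows and the longest 1 in 5 a median of 0.42 below them on the log2 scale. Prediabetic replicates 4 and 5 carry the animal numbers 6011 and 6311, while the other 7 animals are numbered 4813 to 5199. Values without these libraries are given for many of the lists and for several genes below.

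A further split was seen in a pair of unnamed genes, AABR07015057.1 and AABR07015081.2, chosen after their values were seen. AABR07015057.1 had 10 libraries at 59135 to 75737 and 9 at 8506 to 13502 across the 4 stages. The low libraries were 2-week replicates 1, 3 and 4 and all 6 from 6 months. The high libraries were 2-week replicate 2, prediabetic replicates 1, 3, 4 and 5 and all 5 from 3 months, with prediabetic replicate 2 between them at 28050. AABR07015081.2 split the same way, and no other gene tested separated the 9 low from the 10 high libraries. The labels name no batch that follows this split, and what it stands for was not tested. With the 2 levels as a term in the fit and prediabetic replicate 2 left out, the level varies within the 2-week group alone. Each difference from that fit is therefore 2-week replicate 2 minus the mean of prediabetic replicates 1, 3, 4 and 5. It compares 1 liver with those prediabetic livers and does not adjust the difference of the 2-week group. With that term the difference of 47 of 139 genes followed moved by more than the SD between replicates. Values with the 2-level term are given below for some lists and genes.

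The liver identity of both groups was plain from hepatocyte markers. Albumin (Alb) averaged 3170840.0 ± 496753 in 2-week livers and 3683470.0 ± 520295 in prediabetic livers (SD, n = 4 and 5). The summed count of 11 hepatocyte markers ranged from 4693070 to 5946840 in 2-week livers and from 4936720 to 6765200 in prediabetic livers. Eif2s3y, a Y-linked translation factor gene, was at 1276 to 1593 in 2-week livers, against 1272 to 1431 in prediabetic livers, so its transcript was present in all 9. Cyp2c11, the male-biased steroid hydroxylase of rat liver, averaged 65571 ± 18659 in 2-week livers and 68609.7 ± 15709 in prediabetic livers. Cyp2c12, its female-biased counterpart, was at 3373, 3306, 5536 and 4270.5 in 2-week livers, against 16759, 3007, 3637, 3313 and 3404 in prediabetic livers, and prediabetic replicate 1 alone was high. Cytochrome P450 genes of 1 subfamily are near-identical in places, so reads may be split between them.

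The 10 genes with higher values in 2-week livers and the smallest p, all short of the adjusted threshold, included cell adhesion, carrier and growth factor genes. Ctps2, a CTP synthase of nucleotide metabolism, had 1277, 1250.5, 932 and 1151 in 2-week livers, against 889.8, 802, 830.1, 744 and 836 in prediabetic livers (log2 0.48, SE 0.10, unadjusted p = 6.84e-05, adjusted p = 0.166 by limma). Every 2-week liver was above every prediabetic liver. Cdh1, the epithelial adhesion protein E-cadherin, which in liver marks periportal hepatocytes, had 4677, 4175, 4766 and 4109.8 in 2-week livers, against 3561, 2331, 3045, 2566 and 2736 in prediabetic livers (log2 0.65, SE 0.13, unadjusted p = 0.000108, adjusted p = 0.166 by limma). Hgf, the hepatocyte growth factor made by stellate and endothelial cells, had 913, 876, 908 and 1041 in 2-week livers, against 682, 596, 524, 480.0 and 787 in prediabetic livers (log2 0.62, SE 0.14, unadjusted p = 0.000209, adjusted p = 0.178 by limma). These groups did not overlap either, and 2-week replicates 1 to 4 each exceeded the highest prediabetic liver. Lrat, which esterifies retinol for storage and marks stellate cells, had 1299, 1067, 728 and 1254 in 2-week livers, against 549, 564, 658, 586 and 772 in prediabetic livers (log2 0.77, SE 0.15, unadjusted p = 7.06e-05, adjusted p = 0.166 by limma). The groups overlapped in Lrat because 2-week replicate 3 lay below prediabetic replicate 5.

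The other 6 of these 10 genes were of more varied function. Slc17a4, an organic anion carrier, averaged 1418 ± 167 in 2-week livers and 779.7 ± 155 in prediabetic livers (log2 0.88, SE 0.19, unadjusted p = 0.000159). Rtn4, a reticulon that shapes the endoplasmic reticulum, averaged 552 ± 86.5 in 2-week livers and 329.7 ± 34.9 in prediabetic livers (log2 0.73, SE 0.16, unadjusted p = 0.000178). Slc6a8, the creatine transporter, averaged 312 ± 19.7 in 2-week livers and 209 ± 38.1 in prediabetic livers (log2 0.59, SE 0.15, unadjusted p = 0.000608). In each of these the lowest 2-week liver was above the highest prediabetic liver. Rfx5, a regulator of major histocompatibility class II genes, averaged 353 ± 29.8 in 2-week livers and 249.8 ± 20.9 in prediabetic livers (log2 0.50, SE 0.13, unadjusted p = 0.000899), also without overlap. Pla1a, a phosphatidylserine phospholipase, averaged 482 ± 212 in 2-week livers and 184 ± 69.3 in prediabetic livers (log2 1.35, SE 0.33, unadjusted p = 0.000643), and Zfp869, a zinc finger gene, averaged 429.5 ± 56.2 in 2-week livers and 307 ± 38.2 in prediabetic livers (log2 0.48, SE 0.11, unadjusted p = 0.000361). These last 2 genes overlapped between the groups. Over all genes, groups that did not overlap were found for 197 with higher values in 2-week livers (1.44%) and 312 with lower values (2.29%).

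The 10 genes with lower values in 2-week livers were mostly enzymes. Agxt, which removes glyoxylate and uses alanine, had 3378, 4255, 3275 and 2924 in 2-week livers, against 4734, 6069, 4157, 6027 and 5343 in prediabetic livers (log2 -0.61, SE 0.13, unadjusted p = 0.00011, adjusted p = 0.166 by limma). The highest 2-week liver and the lowest prediabetic liver overlapped narrowly. Gapdh, the glyceraldehyde phosphate dehydrogenase of glycolysis and gluconeogenesis that is often used as a reference gene, had 17161, 18655, 19821 and 14075 in 2-week livers, against 21619, 27682, 26344, 32046 and 30564 in prediabetic livers (log2 -0.66, SE 0.14, unadjusted p = 0.000189, adjusted p = 0.171 by limma). Cyp17a1, the steroid hydroxylase and lyase, had 201, 272, 215 and 188 in 2-week livers, against 605, 530.1, 565, 819 and 1104 in prediabetic livers (log2 -1.68, SE 0.41, unadjusted p = 0.000574, adjusted p = 0.294 by limma). Neither Gapdh nor Cyp17a1 overlapped between groups. Sdr16c6, of a retinol dehydrogenase family, had 229, 81.8, 31.1 and 44.5 in 2-week livers, against 280.0, 191, 511, 1715 and 1813 in prediabetic livers (log2 -3.08, SE 0.71, unadjusted p = 0.000339, adjusted p = 0.237 by limma). Its prediabetic values covered a wide range, and the groups overlapped.

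Acads, the short-chain acyl-CoA dehydrogenase of mitochondrial fat oxidation, averaged 5292 ± 535 in 2-week livers and 7177 ± 917 in prediabetic livers (log2 -0.44, SE 0.10, unadjusted p = 0.000366). Tm6sf2, needed for loading lipid onto very low density lipoprotein in humans and mice, averaged 846 ± 154 in 2-week livers and 1185 ± 75 in prediabetic livers (log2 -0.50, SE 0.12, unadjusted p = 0.000393). Ppcs, an enzyme of coenzyme A synthesis, averaged 1587 ± 193 in 2-week livers and 2671 ± 717 in prediabetic livers (log2 -0.72, SE 0.17, unadjusted p = 0.000332). None of these 3 overlapped between groups. Alg3, a mannosyltransferase of N-glycan assembly, averaged 519 ± 54.2 in 2-week livers and 725 ± 54.7 in prediabetic livers (log2 -0.49, SE 0.10, unadjusted p = 0.00016), and Fam20b, a kinase of proteoglycan synthesis, averaged 1322 ± 84.9 in 2-week livers and 1784 ± 254 in prediabetic livers (log2 -0.42, SE 0.10, unadjusted p = 0.000469), again without overlap. Dpt, the matrix protein dermatopontin, had 15432, 20886, 14688 and 13287 in 2-week livers, against 19334, 26264, 25809, 27035 and 27158 in prediabetic livers (log2 -0.65, SE 0.13, unadjusted p = 8.06e-05, adjusted p = 0.166 by limma), and its groups overlapped only through 2-week replicate 2 and prediabetic replicate 1.

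All 20 of these genes kept their direction and an unadjusted p under 0.05 when any 1 of the 9 libraries was left out. With the 2-level term, which rests on 2-week replicate 2 alone, Pla1a moved to 0.55, Rtn4 to 0.46, Agxt to -0.24 and Dpt to -0.24 on the log2 scale. These genes were chosen by their p in the same libraries, so their p-values describe and do not test.

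**Figure D2:**
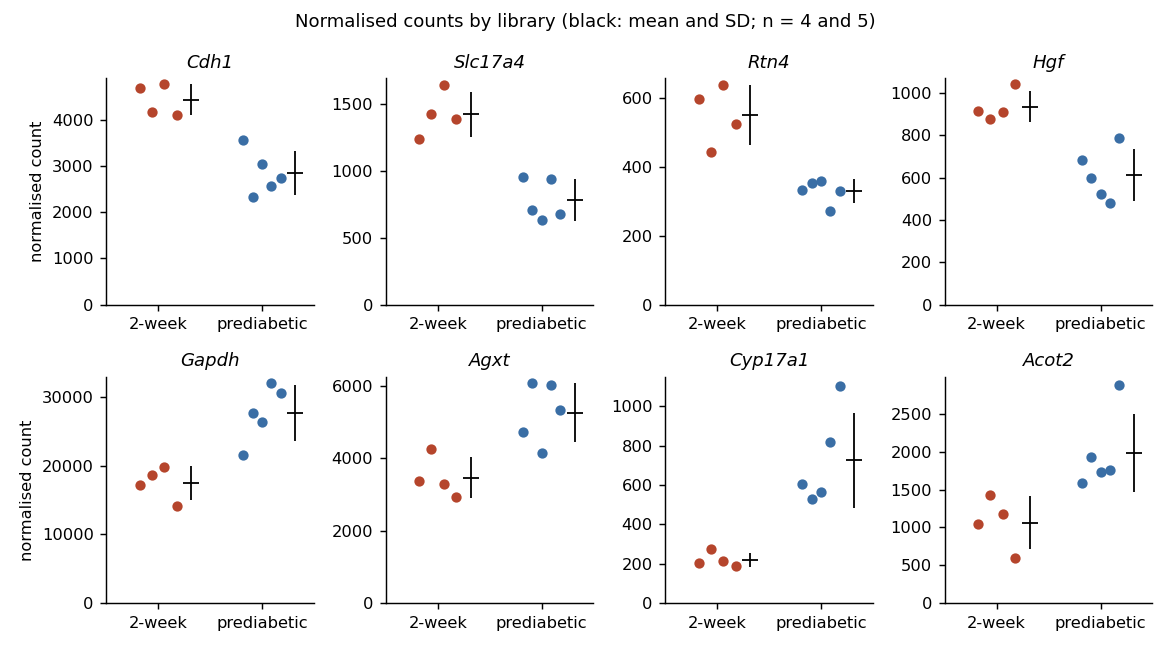
Normalised counts of 8 genes in each 2-week (red) and prediabetic (blue) liver, with the mean and SD of each group in black (n = 4 and 5). In the 7 genes other than Agxt, the 2 groups do not overlap, with Cdh1, Slc17a4, Rtn4 and Hgf higher and Gapdh, Cyp17a1 and Acot2 lower in 2-week livers.

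Genes of fatty acid oxidation and ketone body synthesis had lower values in 2-week livers. Of 25 members tested 22 were lower, 14 of them at an unadjusted p under 0.05 against 4.41% of all genes, 0 were higher at that p, and 0 were called after adjustment. The median difference was -0.37 on the log2 scale, against 0.02 over all genes. This list and those below were chosen with earlier results of these data known, so their shares describe and do not test. Summed, the members reached 304198 to 481470 in 2-week livers and 471672 to 596494 in prediabetic livers. These pathways take fatty acids as coenzyme A esters into mitochondria by the carnitine shuttle, shorten them there and in peroxisomes, and pass the product to ketone bodies. Genes named from here on with a p were singled out after their values were seen, for a small p within their list or for their known role, and members of each list with the highest counts, up to 2, are named by rule.

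Acot2, a mitochondrial acyl-CoA thioesterase, had 1046, 1429.8, 1178 and 592 in 2-week livers, against 1594, 1938, 1739.8, 1761 and 2880.0 in prediabetic livers (log2 -0.94, SE 0.23, unadjusted p = 0.000724, adjusted p = 0.294 by limma). Slc25a20, the carnitine-acylcarnitine carrier, had 5507, 6655, 5255 and 4498 in 2-week livers, against 5880.2, 8904, 6864, 7161 and 7474 in prediabetic livers (log2 -0.41, SE 0.12, unadjusted p = 0.004). Acadvl, the very long-chain acyl-CoA dehydrogenase of the first mitochondrial step, had 9838, 11863, 10634 and 9378 in 2-week livers, against 11517, 13877, 11879, 13030.2 and 12793 in prediabetic livers (log2 -0.28, SE 0.09, unadjusted p = 0.00733). The groups were apart in Acot2 and overlapped in the other two. Hadha, the trifunctional protein subunit of the next steps, averaged 16889 ± 3032 in 2-week livers and 21678 ± 2194 in prediabetic livers (log2 -0.37, SE 0.13, unadjusted p = 0.00873). In peroxisomes, the thiolase Acaa1a averaged 8054 ± 809 in 2-week livers and 10793 ± 1275 in prediabetic livers (log2 -0.42, SE 0.14, unadjusted p = 0.00586), and the bifunctional enzyme Ehhadh averaged 19532 ± 4198 in 2-week livers and 28629.9 ± 7971 in prediabetic livers (log2 -0.54, SE 0.21, unadjusted p = 0.0199). Cyp4a3, an omega-hydroxylase of fatty acids and a classic PPARα target in rat, had 34799, 36195, 37544 and 19554 in 2-week livers, against 43784, 44091, 39633, 47482 and 49770.0 in prediabetic livers (log2 -0.53, SE 0.21, unadjusted p = 0.0203). All 4 of its 2-week values were below the lowest prediabetic value, and 2-week replicate 4 was the lowest.

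Acaa2, a mitochondrial thiolase and among the highest in count of the list, averaged 33213 ± 5584 in 2-week livers and 44593 ± 6452 in prediabetic livers (log2 -0.43, SE 0.17, unadjusted p = 0.0223). Cpt1a, the gate of the carnitine shuttle, averaged 16568 ± 4470.4 in 2-week livers and 23044 ± 6674 in prediabetic livers (log2 -0.47, SE 0.23, unadjusted p = 0.0508), which missed an unadjusted p of 0.05. The receptor itself, Ppara, averaged 1635 ± 461 in 2-week livers and 1706 ± 731 in prediabetic livers (log2 0.09, SE 0.39, unadjusted p = 0.823), and its secreted target Fgf21, a fasting hormone, averaged 184 ± 90.6 in 2-week livers and 333 ± 174 in prediabetic livers (log2 -0.84, SE 0.79, unadjusted p = 0.298). Neither set the groups apart, and their intervals of -0.72 to 0.90 for Ppara and -2.49 to 0.81 for Fgf21 on the log2 scale were wide.

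The count for this list depended on the libraries. It was 11 without prediabetic replicate 2, 8 without prediabetic replicate 5, 5 without 2-week replicate 4 and 16 at most when 1 library was left out. Without prediabetic replicates 4 and 5 together it was 4, and 1 when replicate 2 was also left out. The median stayed at -0.36 without replicate 2 and -0.31 without replicates 4 and 5, where Cpt1a moved to -0.20 and Ehhadh to -0.31. With the 2-level term, which rests on 2-week replicate 2 alone, the median was -0.15. Acot2 was then at -0.44, Slc25a20 at -0.03, Acadvl at -0.05 and Hadha at -0.02.

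**Figure D3:**
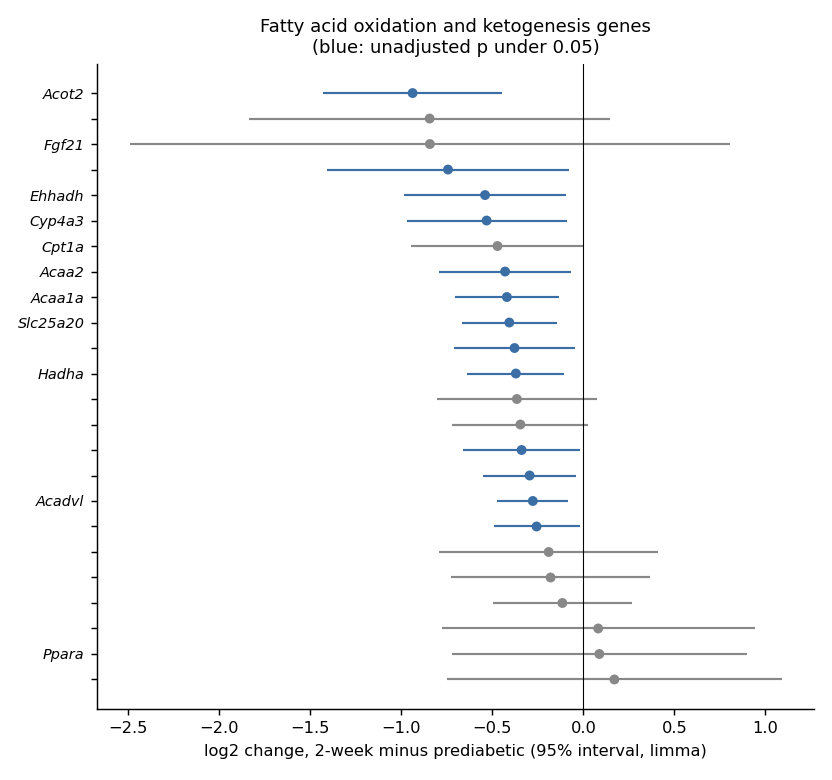
Log2 differences, 2-week minus prediabetic, of 24 tested genes of fatty acid oxidation and ketone body synthesis, with the 95% interval of the limma fit as a line and names for those given in the text. The 13 genes in blue had an unadjusted p under 0.05, all of them lower in 2-week livers.

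Proximal promoters of these genes were read for the letters of the nuclear receptor half-site AGGTCA, since PPARα binds a direct repeat of it with 1 base between the copies. RefSeq promoters of build GRCr8, from 250 bases before to 50 after the annotated start, were on hand for 18 of the 25 genes. Acadvl and Cyp4a3, members from mitochondria and from omega-oxidation, hold the letters and are shown, each 5′ to 3′ on the minus strand with the half-site in capitals.
Acadvl, chr10:55236656-55236955: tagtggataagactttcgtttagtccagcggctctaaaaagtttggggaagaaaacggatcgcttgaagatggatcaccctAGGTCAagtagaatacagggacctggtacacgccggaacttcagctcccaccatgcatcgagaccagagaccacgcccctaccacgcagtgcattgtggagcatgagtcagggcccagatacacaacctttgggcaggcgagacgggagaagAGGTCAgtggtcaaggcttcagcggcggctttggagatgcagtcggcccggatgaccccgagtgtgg
Cyp4a3, chr5:134352187-134352486: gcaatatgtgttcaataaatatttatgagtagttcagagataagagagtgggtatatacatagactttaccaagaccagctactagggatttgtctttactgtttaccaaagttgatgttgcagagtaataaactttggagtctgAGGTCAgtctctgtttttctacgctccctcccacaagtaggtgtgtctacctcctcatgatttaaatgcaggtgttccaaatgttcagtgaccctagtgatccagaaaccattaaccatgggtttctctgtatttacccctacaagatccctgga
In Acadvl the letters begin 169 and 17 bases before the start, and in Cyp4a3 105 bases before it. Read on both strands, 3 of 18 promoters of the list held AGGTCA (16.7%), against 1198 of 9730 promoters of tested genes (12.3%) and 4305 of 27457 promoters in all (15.7%). The letters were in 5 of 14 promoters of the lipoprotein and lipid droplet list (35.7%) and in 9 of 27 of the respiratory chain list (33.3%). The direct repeat AGGTCANAGGTCA was in 0 of 18, and in 0.0411% of the promoters of tested genes. A match of letters is a description of the sequence and says nothing of binding.

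Lipid droplet and lipoprotein genes also leaned lower in 2-week livers. Of 20 members 17 were lower, 9 at an unadjusted p under 0.05 (4.41% of all genes), with 0 higher at that p and 0 called. The median difference was -0.35 on the log2 scale. Cideb, which helps load lipid onto very low density lipoprotein, had 4959, 5323, 4878 and 4682 in 2-week livers, against 6065, 7163, 5706, 7088 and 6409.7 in prediabetic livers (log2 -0.38, SE 0.10, unadjusted p = 0.00148). Plin5, the droplet coat protein that ties droplets to mitochondria, had 169, 127, 163 and 96.8 in 2-week livers, against 246, 217, 188, 191 and 247 in prediabetic livers (log2 -0.67, SE 0.19, unadjusted p = 0.00226). Both were lower in every 2-week liver than in any prediabetic liver. Plin2, the main droplet coat protein of hepatocytes, averaged 2529.7 ± 845 in 2-week livers and 4468 ± 949 in prediabetic livers (log2 -0.86, SE 0.37, unadjusted p = 0.0323), and G0s2, an inhibitor of the lipase Pnpla2, had 2638, 6658, 2943 and 2233 in 2-week livers, against 6434, 12084, 5379.8, 9069 and 5546 in prediabetic livers (log2 -1.16, SE 0.51, unadjusted p = 0.0339). For G0s2, 2-week replicate 2 was within the prediabetic range and the other 3 were lower, and with the 2-level term its difference was 0.04. Apoc3, the apolipoprotein that slows clearance of triglyceride-rich particles, averaged 98327 ± 10862 in 2-week livers and 131686 ± 27549.6 in prediabetic livers (log2 -0.41, SE 0.16, unadjusted p = 0.0196), and prediabetic replicate 2 was its highest library. Apoe and Apob, with the highest counts of the list, gave -0.29 and 0.19 on the log2 scale (unadjusted p = 0.101 and 0.326 by limma). The count of 9 became 3 without prediabetic replicate 2, 3 without 2-week replicate 4, 4 without 2-week replicate 1 and 4 without prediabetic replicates 4 and 5. The median was -0.23 without prediabetic replicate 2, and 0.00 with the 2-level term.

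Fatty acid synthesis genes varied mainly among prediabetic livers. Of 19 members 17 were lower in 2-week livers and the median difference was -0.48 on the log2 scale, but 2 were lower at an unadjusted p under 0.05 (4.41% of all genes), 0 were higher and 0 were called. Scd, the stearoyl-CoA desaturase, had 17792, 25209, 10388 and 6191 in 2-week livers, against 23218, 44397, 61964, 99748 and 84387 in prediabetic livers (log2 -2.10, SE 0.95, unadjusted p = 0.0396). Slc25a1, the citrate carrier that supplies carbon for synthesis, had 5398, 4595, 5534 and 3973 in 2-week livers, against 5203, 5843, 5742, 7607 and 7039 in prediabetic livers (log2 -0.37, SE 0.14, unadjusted p = 0.0152). In both, the groups overlapped. Fasn, the fatty acid synthase, had 4455, 3266, 4955 and 2668 in 2-week livers, against 3333, 2249, 5503, 11163 and 10109.5 in prediabetic livers (log2 -0.54, SE 0.36, unadjusted p = 0.151), and Acly, which splits citrate, had 4641, 4166, 3936 and 3582 in 2-week livers, against 3121, 2890.0, 5781, 10331 and 12842 in prediabetic livers (log2 -0.53, SE 0.35, unadjusted p = 0.149). Pnpla3, a droplet lipase gene driven by SREBP-1c, had 155, 293, 322 and 96.5 in 2-week livers, against 154, 75.9, 467, 3934 and 3420.2 in prediabetic livers (log2 -1.61, SE 0.94, unadjusted p = 0.102). Prediabetic replicates 4 and 5 were the highest livers for Fasn, Acly and Pnpla3. Without them the differences were 0.11 for Fasn, 0.12 for Acly and 0.14 for Pnpla3, and the list median was -0.03 with 0 members lower at that p. Thrsp, a lipogenic regulator with the second highest count of the list, averaged 15398 ± 5278 in 2-week livers and 29309.5 ± 10712 in prediabetic livers (log2 -0.93, SE 0.57, unadjusted p = 0.118). The count was 9 without prediabetic replicate 2 and 0 without 2-week replicate 4. Fasn moved to -1.05 with the 2-level term. What sets prediabetic replicates 4 and 5 apart from their fellows was not tested.

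Glycolysis, fructose and glycogen genes gave 5 of 24 members lower in 2-week livers at an unadjusted p under 0.05 (4.41% of all genes), 0 higher and 0 called, with a median of -0.23 on the log2 scale. Of these 5, the 4 named here code for enzymes of glycolysis. Eno1, the enolase, had 9850.2, 9944, 10660.5 and 8763 in 2-week livers, against 11646, 15374, 12641, 13495 and 13058 in prediabetic livers (log2 -0.43, SE 0.12, unadjusted p = 0.0014). Pgk1, the phosphoglycerate kinase, averaged 6505 ± 888 in 2-week livers and 9034 ± 1869 in prediabetic livers (log2 -0.46, SE 0.15, unadjusted p = 0.00537), and Pfkl, the liver phosphofructokinase, averaged 1773 ± 95.6 in 2-week livers and 2208 ± 292 in prediabetic livers (log2 -0.31, SE 0.11, unadjusted p = 0.00898). With Gapdh these are the 4, and Eno1, Pfkl and Gapdh did not overlap between groups. The count of 5 was 4 or 5 when 1 library was left out. Without prediabetic replicates 4 and 5 the list median was -0.15 and Pfkl moved to -0.17. Without prediabetic replicates 2, 4 and 5 the median was -0.10.

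Gluconeogenesis genes were lower in 9 of 12 members with a median of -0.25 on the log2 scale, and 1 was lower at that p, a share near the 4.41% of all genes. Fbp1, the fructose bisphosphatase, had 20916, 21454, 16302 and 15481 in 2-week livers, against 22653, 29174, 22063, 30568 and 28396 in prediabetic livers (log2 -0.52, SE 0.14, unadjusted p = 0.00169), with no overlap between groups. Pck1, the phosphoenolpyruvate carboxykinase repressed by insulin, averaged 112412 ± 42517 in 2-week livers and 95779 ± 33809 in prediabetic livers (log2 0.26, SE 0.42, unadjusted p = 0.542). G6pc, the glucose-6-phosphatase, averaged 16201 ± 7636 in 2-week livers and 16245 ± 8247 in prediabetic livers (log2 0.05, SE 0.81, unadjusted p = 0.954), and Pc, the pyruvate carboxylase, averaged 25583 ± 5518 in 2-week livers and 32306 ± 1058 in prediabetic livers (log2 -0.36, SE 0.19, unadjusted p = 0.0732). These 3 enzymes went in no common direction, and G6pc varied within both groups.

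Amino acid catabolism and urea cycle genes were lower in 25 of 27 members, 6 of them at an unadjusted p under 0.05 (4.41% of all genes), with 0 higher and 0 called, and a median of -0.30 on the log2 scale. Beside Agxt, Bckdk, the kinase that restrains branched-chain amino acid breakdown, had 626, 609, 611 and 552 in 2-week livers, against 740.1, 825, 704, 695 and 739 in prediabetic livers (log2 -0.30, SE 0.10, unadjusted p = 0.00872). Sdsl, a serine dehydratase relative, averaged 296 ± 32.7 in 2-week livers and 469 ± 114 in prediabetic livers (log2 -0.63, SE 0.23, unadjusted p = 0.0127), and Nags, which makes the activator of the urea cycle, averaged 2842 ± 251 in 2-week livers and 3607 ± 347 in prediabetic livers (log2 -0.34, SE 0.13, unadjusted p = 0.0149). In these 3 the groups did not overlap. Cps1, the first urea cycle enzyme, averaged 96484 ± 20572 in 2-week livers and 135256 ± 22149 in prediabetic livers (log2 -0.50, SE 0.32, unadjusted p = 0.13), and Hpd, of tyrosine breakdown, averaged 69482 ± 13370.4 in 2-week livers and 53606 ± 7451 in prediabetic livers (log2 0.37, SE 0.29, unadjusted p = 0.221). Sds, the serine dehydratase, had 3597, 2349, 258 and 1589 in 2-week livers, against 2629.6, 2724, 1644, 19241 and 10134 in prediabetic livers (log2 -1.78, SE 1.31, unadjusted p = 0.189), and Got1, the cytosolic aspartate aminotransferase, had 7404, 3402, 1550.3 and 2610.1 in 2-week livers, against 4065, 4895, 2913, 19298 and 14331 in prediabetic livers (log2 -1.13, SE 0.56, unadjusted p = 0.0581). Prediabetic replicates 4 and 5 were high in both. Without them the differences were -0.74 for Sds and -0.28 for Got1, and 3 members of the list were lower at that p.

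Respiratory chain subunits encoded in the nucleus were lower in 28 of 29 members, 8 at an unadjusted p under 0.05 (4.41% of all genes), with 0 higher, 0 called and a median of -0.20 on the log2 scale. Ndufs7, of complex I, had 2155, 1954, 2298 and 1789 in 2-week livers, against 2759, 3770.3, 2571, 2788 and 2629 in prediabetic livers (log2 -0.49, SE 0.14, unadjusted p = 0.00179). The groups did not overlap, and prediabetic replicate 2 was far above its fellows. Atp5f1b and Atp5f1a, ATP synthase subunits with the highest counts of the list, gave -0.22 and -0.27 (unadjusted p = 0.115 and 0.019 by limma). Without prediabetic replicate 2 the median was -0.14 with 6 members lower at that p, and with the 2-level term it was 0.00. The median was -0.20 without prediabetic replicates 4 and 5, and -0.05 without prediabetic replicates 2, 4 and 5. Over all settings the count of members lower at that p ran from 1 to 12.

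Among sirtuin and NAD genes 4 of 19 were lower at an unadjusted p under 0.05 (4.41% of all genes), 0 higher and 0 called, and the count was 2 without 2-week replicate 4. Qprt, of NAD synthesis from tryptophan, had 2959, 3345, 2998 and 2228 in 2-week livers, against 3994, 4112, 3181, 4042 and 4043 in prediabetic livers (log2 -0.44, SE 0.13, unadjusted p = 0.00314). Nnmt, which methylates nicotinamide, had 1537, 1588, 1438 and 1729 in 2-week livers, against 1832, 3468, 2115, 4281 and 2667 in prediabetic livers (log2 -0.80, SE 0.24, unadjusted p = 0.00385). Naprt, which uses nicotinic acid, averaged 1959 ± 246 in 2-week livers and 2646 ± 221 in prediabetic livers (log2 -0.44, SE 0.18, unadjusted p = 0.0224). Nnmt and Naprt did not overlap between groups, and Qprt did. Tdo2 and Haao, of the tryptophan pathway and the highest in count, gave -0.21 and -0.25 (unadjusted p = 0.472 and 0.0835 by limma). Sirt1, the deacetylase named in the study's title, was not analysed here.

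Cholesterol synthesis went the other way in part. Of 25 members 19 were higher in 2-week livers, 3 of them at an unadjusted p under 0.05 (3.49% of all genes), 0 were lower at that p and 0 were called, and the median was 0.12 on the log2 scale. Sqle, the squalene epoxidase, had 829, 469, 1120.4 and 1317 in 2-week livers, against 247, 203, 469.6, 534 and 599 in prediabetic livers (log2 1.21, SE 0.39, unadjusted p = 0.00602). Idi1, the isopentenyl diphosphate isomerase, had 789, 776, 1320.0 and 1436 in 2-week livers, against 334, 387, 678, 819 and 759.9 in prediabetic livers (log2 0.89, SE 0.38, unadjusted p = 0.0286). Fdft1, the squalene synthase, had 4879, 4669, 5676 and 4823 in 2-week livers, against 2946, 3039, 3955, 3791 and 4015 in prediabetic livers (log2 0.51, SE 0.16, unadjusted p = 0.00555). The groups were apart in Fdft1 and overlapped in Sqle and Idi1. Insig1, a sterol sensor protein among the highest in count, gave -0.15 (unadjusted p = 0.799 by limma). The median was -0.0028 without prediabetic replicate 1, 0.02 without 2-week replicate 3, 0.06 without prediabetic replicate 2 and 0.35 without prediabetic replicates 4 and 5. Without the last pair the count was 6, and Sqle moved to 0.10 with the 2-level term, where the list median was -0.15.

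Extracellular matrix genes, many of them textbook targets of miR-29, were higher in 18 of 22 members, 3 at an unadjusted p under 0.05 (3.49% of all genes), with 0 lower, 0 called and a median of 0.33 on the log2 scale. The miR-29 family silences collagen messages through a shared seed, and its 3 mature forms in rat are shown for that seed, in RefSeq's letters of build GRCr8 with bases 2 to 8 in capitals.
miR-29a-3p, chr4:60617968-60617989, minus strand: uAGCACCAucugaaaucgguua
miR-29b-3p, chr4:60618342-60618364, minus strand, and chr13:109098882-109098904, plus strand: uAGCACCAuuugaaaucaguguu
miR-29c-3p, chr13:109099412-109099433, plus strand: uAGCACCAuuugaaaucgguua
The 3 forms share 1 seed.

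Col5a2, a chain of fibrillar type V collagen, had 336, 231, 254 and 307 in 2-week livers, against 169, 156, 190.3, 128 and 226 in prediabetic livers (log2 0.70, SE 0.19, unadjusted p = 0.00148). Its partner Col5a1 had 628, 378, 387 and 465 in 2-week livers, against 339.9, 227, 341, 277 and 507 in prediabetic livers (log2 0.48, SE 0.20, unadjusted p = 0.0248). Col3a1, the type III chain, had 5018, 2788, 3541 and 4506 in 2-week livers, against 2906, 2659, 2992, 1899 and 3061 in prediabetic livers (log2 0.54, SE 0.22, unadjusted p = 0.0251). Col5a2 did not overlap between groups, and the other pair did. Col1a1, of type I collagen, averaged 177 ± 65.7 in 2-week livers and 167 ± 98.1 in prediabetic livers (log2 0.18, SE 0.53, unadjusted p = 0.741), and Lox, which crosslinks collagen, averaged 982 ± 316 in 2-week livers and 559 ± 243 in prediabetic livers (log2 0.86, SE 0.94, unadjusted p = 0.371). Fn1, fibronectin, and Sparc, a collagen-binding glycoprotein, the highest in count, gave -0.09 and 0.25 (unadjusted p = 0.722 and 0.0745 by limma). The count of 3 was 1 without 2-week replicate 1, 1 without prediabetic replicate 4 and 8 without 2-week replicate 2, and the median with the 2-level term was -0.12. Among miR-29 targets beyond matrix 1 of 16 was higher at that p, with a median of 0.14, which was 0.02 without prediabetic replicate 2 and -0.08 without prediabetic replicates 2, 4 and 5. Stellate cells, which make most liver collagen, had summed markers of 5531 to 7345 in 2-week livers and 3960 to 5998 in prediabetic livers, with 9 of 11 markers higher, 1 of them at that p (Lrat), and their part in the matrix values was not tested. In whole liver more cells of a type and more RNA per cell cannot be told apart, and the same holds for fewer cells and less RNA.

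Perivenous hepatocyte genes, expressed around the central vein, were higher in 8 of 10 members, 3 at an unadjusted p under 0.05 (3.49% of all genes), with a median of 0.45 on the log2 scale and 0 called. Cyp1a2, which oxidises caffeine and aromatic amines, had 10872, 8957, 10374 and 14478 in 2-week livers, against 9272, 5257, 10065, 7525 and 7256 in prediabetic livers (log2 0.52, SE 0.20, unadjusted p = 0.0183). Rgn, the calcium-binding regucalcin, had 16601, 24612, 19908 and 21049 in 2-week livers, against 19112, 14848, 13244, 14136 and 12995 in prediabetic livers (log2 0.47, SE 0.21, unadjusted p = 0.0401). The groups overlapped in both. Cyp2e1, the ethanol- and ketone-inducible P450, had 159987, 122182, 179326 and 246775 in 2-week livers, against 104788, 110837, 99922, 104085 and 97268 in prediabetic livers (log2 0.73, SE 0.38, unadjusted p = 0.0721). It did not overlap between groups but missed an unadjusted p of 0.05, the spread being pooled over all 4 stages. The count was 1 without any 1 of 2-week replicates 3 and 4 or prediabetic replicates 2, 4 and 5. Periportal genes gave 1 higher member at that p, Cdh1, and 1 lower of 10, with a median of -0.29. Without prediabetic replicates 4 and 5 the median was 0.22 for perivenous and -0.01 for periportal genes. Cyp1a2 moved to 0.08 and Cyp2e1 to 0.27 with the 2-level term.

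Of 23 xenobiotic genes 3 were higher at that p (3.49% of all genes) and 1 lower (4.41%), with a median of 0.18 and 0 called. Without 2-week replicate 2, 5 were higher. Abcc3, an export pump of conjugated bile acids and drugs, had 163, 67.5, 256 and 237 in 2-week livers, against 65.3, 50.6, 72.4, 73.7 and 71.1 in prediabetic livers (log2 1.27, SE 0.38, unadjusted p = 0.00317). Nr1i3, the constitutive androstane receptor, had 2395, 1315, 1206 and 3176 in 2-week livers, against 1109.6, 1007, 1412, 371 and 624 in prediabetic livers (log2 1.19, SE 0.50, unadjusted p = 0.0287). Cyp2b2, its classic target in rat, had 158, 178, 136 and 213 in 2-week livers, against 109, 462, 1068, 704 and 1204 in prediabetic livers (log2 -1.67, SE 0.60, unadjusted p = 0.0118). The receptor was thus higher and its target lower in group means, with overlap in all 3 genes. With the 2-level term Abcc3 moved to -0.06, and without prediabetic replicates 4 and 5 Nr1i3 moved to 0.68. Cyp3a23/3a1, second in count to Cyp2e1, averaged 60293 ± 9042 in 2-week livers and 62407 ± 6988 in prediabetic livers (log2 -0.05, SE 0.36, unadjusted p = 0.882).

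Of 19 insulin and IGF genes 1 was higher at that p, a share near the 3.49% of all genes, 0 were lower and 0 called, with a median of 0.00. Without 2-week replicate 2 that count was 3. Igfbp2, an IGF-binding protein repressed by insulin, had 792, 249, 1343 and 1486 in 2-week livers, against 510.1, 319.8, 175, 59 and 146 in prediabetic livers (log2 2.05, SE 0.70, unadjusted p = 0.00861). In 2-week replicates 1, 3 and 4 it was above every prediabetic liver, and in 2-week replicate 2 it was within their range. Igfbp1, the binding protein released when insulin is low, averaged 5719 ± 4630.2 in 2-week livers and 2499 ± 1149 in prediabetic livers (log2 0.94, SE 0.65, unadjusted p = 0.163), and Irs2, the insulin receptor substrate of liver, averaged 989.9 ± 378 in 2-week livers and 638 ± 90 in prediabetic livers (log2 0.56, SE 0.30, unadjusted p = 0.078). Igf1 and Ghr, the growth hormone receptor, the highest in count, gave -0.22 and -0.24 (unadjusted p = 0.152 and 0.273 by limma). With the 2-level term the differences were 0.58 for Igfbp2, -0.76 for Igfbp1 and -0.23 for Irs2.

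Markers of other cell types gave few or no members at that p. Kupffer cell and macrophage markers summed to 16567 to 20765 in 2-week livers and 16209 to 24777 in prediabetic livers, 0 of 11 had an unadjusted p under 0.05, and their median was -0.06. Clec4f, a Kupffer cell lectin, and C1qa, a complement chain, were the highest in count at -0.12 and -0.11. Red blood cell markers summed to 9682 to 12900 in 2-week livers and 14302 to 22988 in prediabetic livers, 3 of 6 lower without overlap (2.29% of all genes) and 0 at that p. Haemoglobin Hbb averaged 3456 ± 309.8 in 2-week livers and 5023 ± 1051 in prediabetic livers (log2 -0.52, SE 0.54, unadjusted p = 0.352), and Hba-a2, listed under 2 identifiers that may share reads, averaged 5633 ± 660.4 in 2-week livers and 9457 ± 2004 in prediabetic livers (log2 -0.73, SE 0.55, unadjusted p = 0.198) for the identifier with the higher count. Those sums did not overlap between groups although no member reached that p, the spread being pooled over all 4 stages, and the part of blood in other results was not tested. Endothelial (10 tested), bile duct (9), lymphocyte and neutrophil (11), adipocyte (2) and pancreatic (1) markers gave 0 members at that p in either direction. With 2 of 6 adipocyte and 1 of 8 pancreatic symbols tested, those lists say little about these cell types. Bile duct markers were higher in 7 of 9 members with a median of 0.54, which was 0.84 without prediabetic replicate 2 and -0.02 without prediabetic replicates 4 and 5. Lymphocyte and neutrophil markers were higher in 7 of 11 with a median of 0.25, which was 0.42 without prediabetic replicate 2 and -0.02 without prediabetic replicates 4 and 5.

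Bile acid genes gave 1 of 13 members higher at that p, Baat, which conjugates bile acids (log2 0.30, SE 0.14, unadjusted p = 0.043), and Cyp8b1, which sets the share of cholic acid, averaged 24262 ± 10478 in 2-week livers and 38353 ± 9541 in prediabetic livers (log2 -0.73, SE 0.47, unadjusted p = 0.138), which was 0.10 with the 2-level term. Genes of the NRF2 antioxidant response gave 1 of 10, Osgin1, an oxidative stress-induced growth inhibitor gene (log2 0.93, SE 0.40, unadjusted p = 0.029), which was 0.26 without prediabetic replicates 4 and 5, while Cat, the peroxisomal catalase, gave -0.05. Interferon genes gave 1 of 21 higher, with Ifi27 at -0.19 and Stat2 at -0.08, and proliferation genes 1 of 21, with Ccnd1 at 0.01 and Pcna at 0.00. Hepatocyte markers gave 2 of 11 lower, with transferrin (Tf) at -0.08. These shares are near those of all genes, or rest on 1 or 2 members.

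No member reached an unadjusted p under 0.05 in the acute phase (19 members), integrated stress response (14), endoplasmic reticulum chaperone (17), p53 (12), glucocorticoid (10) or circadian clock (18) lists. Their members with the highest counts gave log2 differences of -0.08 for complement C3 and -0.21 for haptoglobin Hp, -0.46 for Atf5 and 0.25 for Atf4, transcription factors of the stress response, and 0.06 for Hspa5 and -0.15 for Calr, chaperones. Cdkn1a and Ccng1, p53 targets, gave -0.41 and -0.03, and the glucocorticoid-induced Tat and Dusp1 gave -0.15 and -0.28. Nr1d1, the clock repressor REV-ERBα, had 3957, 4347, 947 and 4289 in 2-week livers, against 3135, 3320.3, 3896, 2834 and 2563 in prediabetic livers (log2 -0.11, SE 0.74, unadjusted p = 0.886), with 2-week replicate 3 far below its fellows, and the clock output factor Tef gave -0.04. Among the other cell types the highest in count gave 0.16 for the stellate gene Colec11, 0.17 and 0.18 for endothelial Fcgr2b and Kdr, and 0.30 for bile duct Epcam. Leukocyte Ptprc and Ccl5 gave 0.32 and -0.13, adipocyte Cfd and Fabp4 -0.28 and 0.39, and the pancreatic elastase Cela1 0.28. Of the genes that differ by sex in rat liver, male-biased Cyp2c13 gave -0.19, female-biased Cux2 -0.22 and Y-linked Kdm5d 0.31.

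**Figure D4:**
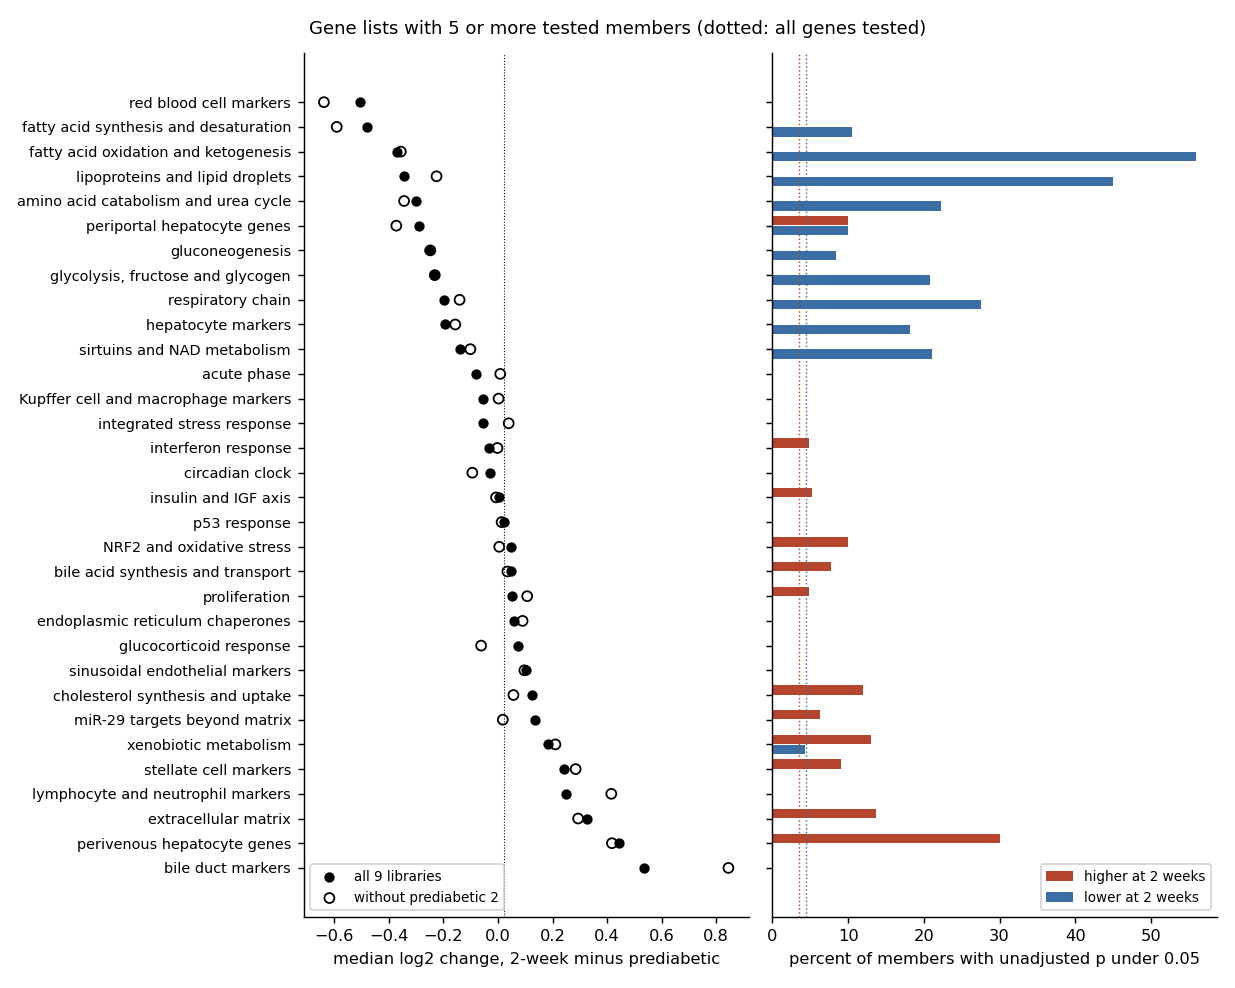
Left, the median log2 difference, 2-week minus prediabetic, of each list with 5 or more tested members, with all 9 libraries (filled) and without prediabetic replicate 2 (open). Right, the percent of members with an unadjusted p under 0.05, higher (red) or lower (blue) in 2-week livers; dotted lines give all genes tested, 3.49% and 4.41%, and fatty acid oxidation holds the longest bar.

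Early diabetes differed from later diabetes in more genes. Set against the mean of 3 and 6 months, 2-week livers had 564 genes called higher (4.13%) and 593 called lower (4.35%) by limma at an adjusted p under 0.05, 1157 of 13640 (8.48%). This contrast shares the 2-week livers with the one above. The count was 242 without 2-week replicate 2, 416 without 2-week replicate 1 and 679 without 2-week replicate 4. Against the same prediabetic livers, 2248 genes were called at 3 months (16.5%) and 2875 at 6 months (21.1%). Because these comparisons share prediabetic livers, their values are given side by side and their likeness is not scored.

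Scd was far higher at 2 weeks than later. It averaged 14895 ± 8383 in 2-week livers, against 192 ± 284 at 3 months and 463 ± 904 at 6 months (log2 6.77, SE 0.83, adjusted p = 0.000119 by limma). Igfbp2 averaged 967 ± 565 in 2-week livers, against 10849 ± 6595 at 3 months and 17651 ± 10571 at 6 months (log2 -3.82, SE 0.61, adjusted p = 0.0015 by limma). At 2 weeks Igfbp2 lay between its prediabetic mean of 242 and the later values, and Scd likewise between 62742 and the later values. Sdr16c6 averaged 96.5 ± 90.7 in 2-week livers, against 1.37 ± 1.25 at 3 months and 1.26 ± 1.54 at 6 months (log2 5.19, SE 0.62, adjusted p = 9.92e-05 by limma). Abcc3 averaged 181 ± 85.4 in 2-week livers, against 604 ± 154 at 3 months and 755 ± 400.0 at 6 months (log2 -1.96, SE 0.33, adjusted p = 0.0021 by limma). Each of these 4 was called in all 15 fits that left out 1 library of the 3 diabetic stages.

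Genes near their prediabetic value at 2 weeks also changed later. Cyp2c11 averaged 65571 ± 18659 in 2-week livers, against 23789 ± 9145 at 3 months and 22558 ± 13026 at 6 months (log2 1.59, SE 0.33, adjusted p = 0.00746 by limma). Ppp1r3b, a glycogen-targeting subunit of protein phosphatase 1, averaged 11257 ± 2431 in 2-week livers, against 3699 ± 516 at 3 months and 5058 ± 2050.0 at 6 months (log2 1.41, SE 0.20, adjusted p = 0.000451 by limma). Igfals, the acid-labile subunit of the circulating IGF complex and a growth hormone target, averaged 10868 ± 1361 in 2-week livers, against 5122 ± 1637 at 3 months and 4404 ± 1355 at 6 months (log2 1.25, SE 0.20, adjusted p = 0.00145 by limma). Against prediabetic livers these 3 genes gave -0.08, -0.27 and -0.29 at 2 weeks (unadjusted p = 0.827, 0.24 and 0.214 by limma). Fgb, the fibrinogen beta chain of the acute phase, averaged 191444 ± 25210.2 in 2-week livers, against 380985 ± 122721 at 3 months and 593135 ± 228821 at 6 months (log2 -1.24, SE 0.26, adjusted p = 0.00762 by limma). It was lower at 2 weeks than later, as were 6 of 19 acute phase genes called lower (4.35% of all genes), with 1 to 7 when 1 library was left out and the fewest without 2-week replicate 2.

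Kupffer cell and macrophage markers were called lower at 2 weeks than later in 11 of 11 members (4.35% of all genes). C1qa averaged 2438 ± 183 in 2-week livers, against 4451 ± 1184 at 3 months and 5224 ± 1741 at 6 months (log2 -0.94, SE 0.19, adjusted p = 0.0063 by limma), and Cd68, a lysosomal protein of macrophages, averaged 629.5 ± 72.6 in 2-week livers, against 1285 ± 394 at 3 months and 1330.1 ± 557 at 6 months (log2 -0.99, SE 0.21, adjusted p = 0.00838 by limma). The count was 4 without 2-week replicate 2 and 9 to 11 without any other library. Cholesterol genes gave 6 of 25 called lower at 2 weeks than later (4.35% of all genes), among them Sqle (log2 -1.22, SE 0.34, adjusted p = 0.0334 by limma) and Fdft1 (log2 -0.51, SE 0.14, adjusted p = 0.0319 by limma). Without 2-week replicate 2 the count was 0 of 25, and Cd68 also lost its call. Sqle was not called without 2-week replicate 1 or 3-month replicate 1 either, nor Fdft1 without 2-week replicates 1 or 4 or 3-month replicate 1. Fatty acid oxidation gave 2 called higher (4.13% of all genes) and 0 lower of 25, with 0 to 4 higher when 1 library was left out. Its median against prediabetic livers was -0.37 at 2 weeks, -0.44 at 3 months and -0.53 at 6 months, and that of the macrophage markers -0.06, 0.95 and 1.00.

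**Figure D5:**
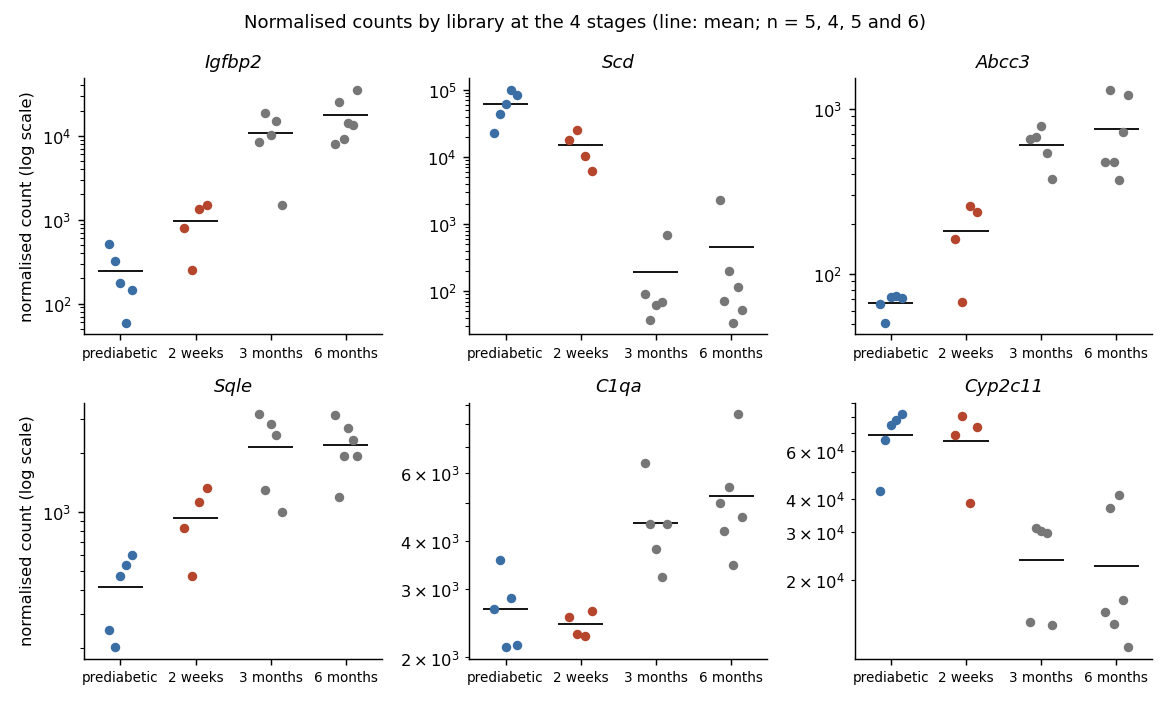
Normalised counts (log scale) of 6 genes in each liver by stage, prediabetic (blue), 2 weeks (red), and 3 and 6 months (grey), with group means as lines (n = 5, 4, 5 and 6). Igfbp2 and Abcc3 stood between prediabetic and later values at 2 weeks, while C1qa and Cyp2c11 stood near their prediabetic values.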

How the data were processed

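Polyadenylated liver RNA of UCD-T2DM rats was prepared with the Illumina TruSeq kit, per the labels. The authors deposited a signal of normalised counts per gene, not whole numbers. The submitters' processing notes list Salmon, STAR and DESeq2 beside the builds rn6, mm10, mm9 and hg19, with neither versions nor roles. Whole reads could not be recovered from the steps between low values (66.5% to 88.5% of values under 20 reads lay within 0.05 of a whole number), so no count test was run. Normalised counts do not show the depth directly, so no counting interval is given.

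Groups came from sample titles and columns from animal numbers in the labels. Values were transformed to log2(value + 1), which understates changes of low genes, and 13640 of 32754 genes with a mean of at least 10 over the 20 rat libraries were fitted. limma 3.58.1 in R 4.3.3, with a variance trend, gave all 4 stages 1 spread (16 residual degrees of freedom). Two-sided p-values were adjusted by Benjamini and Hochberg's method over all genes fitted, and genes under 0.05 were called. Replicates are separate animals by number. The fit was tested on simulated data.

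The naming rule took Sirt1, then the 10 largest called changes in each direction, or, where fewer were called, the genes of smallest unadjusted p that carry a symbol and average 50 or more over both groups. From each of 37 gene lists it took up to 2 members by highest mean when none was called; some genes the rule names are not reported here. Members and lists were chosen with earlier results of these data known. Genes under placeholder clone names do not count as having a symbol. RefSeq sequences (GRCr8) were matched by symbol. Alternatives were another pseudocount, other filters, rescaling by medians of ratios or trimmed means, the compared groups alone, a replicate block, no variance trend, and each library left out. Leaving out prediabetic replicates 4 and 5, or 2, 4 and 5, leaving out each library for the lists, and the 2-level term were chosen after seeing the data. The labels name no pairing of animals by replicate number. Correlations of same-numbered 2-week and prediabetic livers were 0.174, 0.114, 0.020 and -0.029. Those of livers with different numbers ran from -0.216 to 0.140, and such values cannot settle whether animals were paired. Small RNA tables and mouse RNA were not used here.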

Additional observations from a re-analysis of the deposited data

Results flagged for a closer look

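Single libraries that stood apart within their group were found in 22 of 278 groups of values tested for the 139 genes followed. A library is listed where its gap to the nearest fellow, as a share of the group's whole range, was above Dixon's critical value for its size, and chance flags about 1 group in 20. Prediabetic replicate 2 was highest in its group in Acads (0.785, 8782 against 6632 to 7095 in its fellows), Ndufs7 (0.819), Apoc3 (0.835), Apoe (0.755), Haao (0.782), Atf4 (0.802), Hspa5 (0.749) and Ccl5 (0.731), and lowest in AABR07015057.1 (0.750). The prediabetic group also had replicate 5 highest in Acot2 (0.733), replicate 1 lowest in Dpt (0.828) and highest in Cyp2c12 (0.954, 16759 against 3007 to 3637), and replicate 3 lowest in Qprt (0.873).

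In the 2-week group, replicate 2 was highest in G0s2 (0.839, 6658 against 2233 to 2943), AABR07015081.2 (0.858) and AABR07015057.1 (0.942, 74172 against 8506 to 12345). Replicate 3 was lowest in Zfp869 (0.863), Nr1d1 (0.885, 947 against 3957 to 4347) and Tef (0.855), the last 2 of them clock genes. Replicate 4 was lowest in Cyp4a3 (0.847) and Ccnd1 (0.833) and highest in Hpd (0.870).

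The change at 2 weeks and the mean change at 3 and 6 months, each against the same prediabetic livers, differed for 32 of the genes followed at an adjusted p under 0.05 by limma, and the difference equals that between 2-week and later livers. Genes higher at 2 weeks than later, with the log2 difference, were Scd at 6.77, Sdr16c6 at 5.19, Lox at 2.94, Cyp2b2 at 1.74, Cdkn1a at 1.70, Ppp1r3c at 1.67, Cyp2c11 at 1.59, Ppp1r3b at 1.41, Cyp8b1 at 1.33, Igfals at 1.25, Rgn at 1.06, Cela1 at 1.00, Ghr at 0.89, Ccng1 at 0.71, Cat at 0.55, Igf1 at 0.51, Lrat at 0.44 and Zfp869 at 0.34. Genes lower at 2 weeks were Igfbp2 at -3.82, Abcc3 at -1.96, Pla1a at -1.48, Fgb at -1.24, Sqle at -1.22, Idi1 at -1.07, Cd68 at -0.99, C1qa at -0.94, Cfd at -0.83, Cyp1a2 at -0.72, Clec4f at -0.62, Hgf at -0.56, Fdft1 at -0.51 and Cdh1 at -0.48. Of the 32, 13 were called in every fit that left out 1 library. They were Pla1a, Sdr16c6, Abcc3, Fgb, Rgn, Ppp1r3b, C1qa, Scd, Igfals, Ghr, Igfbp2, Cyp2c11 and Cela1. Those called in fewest such fits were Idi1 (3 of 15) and Lrat, Cyp2b2, Cyp8b1, Cat and Cdkn1a (4 of 15 each).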

How the results depend on the processing

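The count of 0 genes called between 2-week and prediabetic livers held under another pseudocount, other filters, both rescalings, the compared groups alone, a replicate block and no variance trend, with 956 to 1380 genes at an unadjusted p under 0.05. Leaving out 1 library gave 0 to 3 calls. The 3 without 2-week replicate 2 were Dpt (log2 -0.79, adjusted p = 0.0254 by limma), AABR07015081.2 (-2.54) and AABR07015057.1 (-2.50). The 3 without 2-week replicate 3 were Ctps2 (0.58, adjusted p = 0.0189 by limma), Lrat (0.95) and AABR07070043.1 (-1.06). The fit with the 2-level term sets 2-week replicate 2 alone against prediabetic livers, so its calls are not given. Why leaving out single libraries changed the count was not tested.

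Between 2 weeks and later diabetes 1157 genes were called, 943 to 1171 under the alternatives that kept all libraries and added no block, and 242 to 1546 when 1 library was left out. A replicate block gave 751 calls, 689 of them among the 1157. The labels name no pairing behind the replicate numbers. In the 2-week and prediabetic comparison the block changed no call. The median standard error of a difference in that comparison was 0.18 on the log2 scale, from a spread pooled over all 4 stages. Its smallest adjusted p by limma was 0.166 with that spread and 0.081 with the compared groups alone. What limited the number of calls was not tested. The fewest estimated reads were those of 2-week replicates 4 and 2.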

Other observations

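The list-by-list medians differed more between livers than the group medians show. Against the prediabetic mean, the median difference of fatty acid oxidation genes ran from -0.61 to -0.13 across 2-week livers and from -0.23 to 0.17 across prediabetic livers, on the log2 scale. Fatty acid synthesis genes ran from -0.76 to -0.32 in 2-week livers and from -0.65 to 0.61 in prediabetic livers. For perivenous genes the medians ran from 0.22 to 0.68 in 2-week livers and from -0.14 to 0.22 in prediabetic livers. Amino acid genes ran from -0.60 to -0.23 in 2-week livers and from -0.19 to 0.33 in prediabetic livers. These are descriptions of the livers, with no test.

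Ppp1r3c, a glycogen-targeting subunit of protein phosphatase 1 that binds glycogen synthase, had a log2 difference of 1.67 between 2-week and later livers (adjusted p = 0.0107 by limma), not called without 2-week replicate 2. Ghr, the growth hormone receptor, was higher at 2 weeks than later at 0.89 (adjusted p = 0.00722 by limma), and so was Igf1 at 0.51 (adjusted p = 0.0175 by limma), not called without 2-week replicate 1 or 2-week replicate 2.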
